A study of Mus musculus with 4 samples.

Results

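The MHC class II presentation genes described here are the alpha and beta chain genes H2-Aa, H2-Ab1 and H2-Eb1, the peptide exchange factor gene H2-DMa, the invariant chain gene Cd74 and the class II activator gene Ciita. All 6 were chosen by symbol through the platform annotation, each has 1 probe set of its own, and they are 6 of the 19938 genes measured. The arrays hold RNA from mouse colony-forming cells of C57BL/6 background, 1 array for each of 4 groups. The groups are LT-HSC CreER, LT-HSC mock, ST-HSC CreER and ST-HSC mock, named for the starting long-term or short-term haematopoietic stem cells and for transduction with CreER (Cre recombinase joined to a part of the oestrogen receptor so that an oestrogen analogue can switch it on) or with a mock control. Below, colonies that grew from these starting cells are called LT-HSC and ST-HSC colonies. All groups were grown as colonies in methylcellulose with serum, stem cell factor, IL-3, IL-6 and GM-CSF. The series title gives the cells a conditional MLL-ENL fusion, a leukaemia oncogene. The sources used here do not give how it is built, whether CreER was switched on, or how many animals the cells came from. The study set CreER against mock in each population, and LT-HSC against ST-HSC in each transduction, as a first screen for genes of leukaemic transformation.

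MHC class II molecules carry peptides from the endosomes of macrophages, dendritic cells and B cells to the surface, where helper T cells read them. An alpha and a beta chain form the molecule, the invariant chain blocks its groove during transport, and the DM molecule exchanges the last invariant chain fragment for a peptide. CIITA binds no DNA itself: it joins the factors RFX, CREB and NF-Y, which sit on the X and Y boxes of class II promoters, and its amount commonly sets class II transcription. GM-CSF, present in these cultures, supports the growth of antigen-presenting myeloid cells.

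Promoter sequences are shown for class II genes in which the X and Y box layout can be read, because these boxes are what CIITA acts through. RefSeq start-site windows of build GRCm38.p6, from 250 bases before to 50 bases after the start, were found for 8 of 11 class II genes looked for, among them 3 of the 6 described here (H2-Aa, H2-Eb1 and H2-DMa). Each window was searched on both strands for GCAAC, letters found in many X boxes, followed after 10 to 40 bases by ATTGG, the Y box core on its reverse strand. The search letters were chosen with these windows in view. Of all 32851 windows, 1.43% held the pair on either strand and 0.7% on the strand of the gene. Capitals below mark GCAAC and ATTGG, with 10 bases on each side, 5′ to 3′ on the strand of the gene.
H2-Aa: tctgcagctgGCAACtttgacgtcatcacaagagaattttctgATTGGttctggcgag
H2-Eb1: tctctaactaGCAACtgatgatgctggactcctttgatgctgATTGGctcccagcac
H2-Oa: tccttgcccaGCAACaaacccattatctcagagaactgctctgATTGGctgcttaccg
H2-Ob: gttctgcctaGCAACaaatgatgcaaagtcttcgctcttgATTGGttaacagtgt
The stretches lie at chr17:34287857-34287914 on the minus strand for H2-Aa, and on the plus strand at chr17:34305766-34305822 for H2-Eb1, chr17:34092293-34092350 for H2-Oa and chr17:34238808-34238862 for H2-Ob. The gap between the capitals was 28 bases in H2-Aa, 27 in H2-Eb1, 28 in H2-Oa and 25 in H2-Ob. H2-Eb2 held the pair too, with a gap of 27 bases, so 5 of the 8 genes with a window had it. The DM genes did not: the pair was in neither of the 2 windows of H2-DMa, nor in those of H2-DMb1 and H2-DMb2. A search for exact letters can miss boxes spelled otherwise, so it cannot show that the DM genes lack X and Y boxes. Genes with the pair lay on both sides of the signal floor: H2-Aa, H2-Eb1 and H2-Oa were above the signal floor on all 4 arrays, and H2-Ob and H2-Eb2 on 0 arrays. The signal floor of an array is its median log2 level over genes, which lay between 8.04 and 8.11.

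The chain genes, H2-DMa and Cd74 were above the signal floor on every array, and 5 of the 6 genes had their lowest level on LT-HSC CreER. Of all 10498 genes that pass the floor on 1 or more arrays, 30.0% were lowest there. H2-Aa, H2-Ab1, H2-Eb1 and H2-DMa had 1 order of levels: lowest on LT-HSC CreER, then LT-HSC mock, then ST-HSC CreER, and highest on ST-HSC mock. With 1 array per group no neighbours in such an order can be set against a spread between replicates. In whole colonies, fewer class II-expressing cells and less RNA per cell cannot be told apart.

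**Figure D1:**
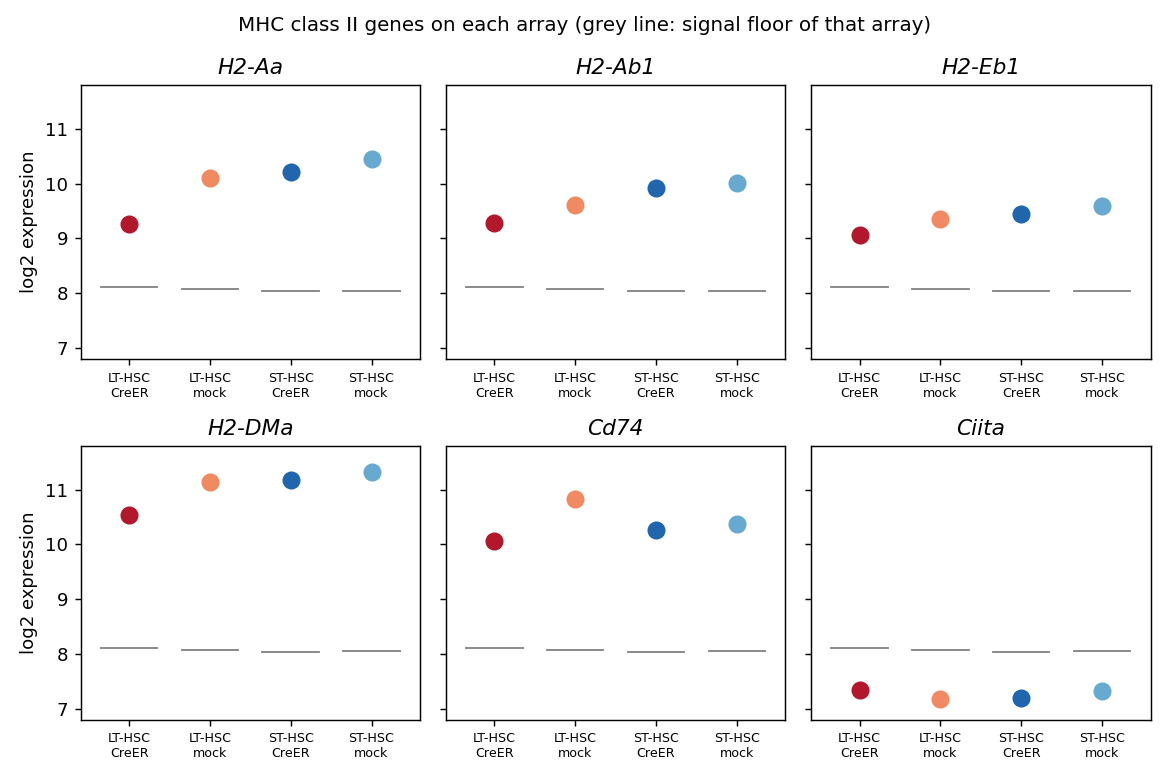
Log2 expression of each of the 6 genes on the 4 arrays, 1 point per array, with a grey line at the signal floor of that array. H2-Aa stands at 9.27 on LT-HSC CreER and between 10.11 and 10.45 on the others, and Ciita lies under the floor on all 4.

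Ciita, the activator, was at a log2 level of 7.35 on LT-HSC CreER, 7.18 on LT-HSC mock, 7.19 on ST-HSC CreER and 7.32 on ST-HSC mock. All 4 values lay under the floor, so their order has no firm meaning, and the whole range was 0.17. Ciita thus had no readable lowest array. It was higher by 0.17 on LT-HSC CreER than on LT-HSC mock, or by 0.09 after quantile and 0.06 after cyclic loess normalization, and its difference was -0.13 between ST-HSC CreER and ST-HSC mock.

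H2-Aa, the alpha chain of the A molecule, had the widest range of the 6 genes. Its log2 level was 9.27 on LT-HSC CreER, 10.11 on LT-HSC mock, 10.22 on ST-HSC CreER and 10.45 on ST-HSC mock. The LT-HSC CreER array stands apart for this gene, 0.83 under the next array, while the other 3 lie within 0.35 of each other. H2-Ab1, the beta chain that pairs with it, was at 9.29 on LT-HSC CreER, 9.61 on LT-HSC mock, 9.92 on ST-HSC CreER and 10.02 on ST-HSC mock. Both LT-HSC levels were under both ST-HSC levels, with gaps of 0.32 between LT-HSC CreER and LT-HSC mock and 0.32 between LT-HSC mock and ST-HSC CreER. The partner genes of the A molecule thus had the same order but different steps.

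H2-Eb1, the beta chain of the E molecule, was at 9.07 on LT-HSC CreER, 9.36 on LT-HSC mock, 9.45 on ST-HSC CreER and 9.59 on ST-HSC mock. Its range of 0.52 was the narrowest among the genes above the floor. The gene of its alpha partner, H2-Ea, is a pseudogene in the RefSeq table, and C57BL/6 mice are known to make no E molecule. H2-Ea, added here after its values were seen, lay under the floor on all 4 arrays, between 6.30 and 6.42.

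H2-DMa, a subunit of the peptide exchange factor, was at 10.53 on LT-HSC CreER, 11.13 on LT-HSC mock, 11.17 on ST-HSC CreER and 11.32 on ST-HSC mock. As for H2-Aa, the LT-HSC CreER array was set apart, by 0.61, and the other arrays lay close together. The genes of its partner subunits, H2-DMb1 and H2-DMb2, share a probe set and are not reported.

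Cd74, the invariant chain, had another order. Its log2 level was 10.07 on LT-HSC CreER, 10.82 on LT-HSC mock, 10.27 on ST-HSC CreER and 10.38 on ST-HSC mock. LT-HSC mock was the highest array for Cd74, by 0.43, whereas for the chain genes and H2-DMa it was second lowest.

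In LT-HSC colonies, 5 of the 6 class II transcripts, all but Ciita, were lower with CreER than with mock, where 55.5% of all genes past the floor were below 0. H2-Aa was 1.78-fold lower (log2 difference -0.83), Cd74 1.67-fold lower (-0.74) and H2-DMa 1.52-fold lower (-0.61). H2-Ab1 and H2-Eb1 differed less, by -0.32 and -0.28. The median over all 6 genes was -0.46, and over the 5 above the floor -0.61, against -0.03 over all genes past the floor in this comparison. Of those genes, 1.26% had a difference as low as that of H2-Aa or lower, 1.6% as low as Cd74, 2.81% as low as H2-DMa, 10.9% as low as H2-Ab1 and 13.0% as low as H2-Eb1. None of the 6 genes was 2-fold lower, where 0.761% of genes past the floor were, and 3 were at least 1.5-fold lower, where 3.05% of genes past the floor were. None was 1.5-fold higher, where 1.03% were, or 2-fold higher, where 0.117% were. This difference of 2 arrays has no replicate check and no test.

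In ST-HSC colonies the differences with CreER were small. All 6 genes were below 0, Ciita under the floor among them, where 57.4% of all genes past the floor were below 0. H2-Aa differed by -0.23, and the others lay between -0.14 and -0.10, within 0.145, the spread of a difference of 2 arrays that limma's prior SD gives. That SD comes from the additive fit described below and is not a spread between replicates. The median was -0.14, against -0.03 over all genes past the floor. No gene of the 6 was 1.5-fold lower, where 0.572% of genes past the floor were, or 2-fold lower, where 0.0789% were. Likewise 0 were 1.5-fold higher, where 1.42% were, or 2-fold higher, where 0.434% were. The CreER difference in LT-HSC colonies minus that in ST-HSC colonies was -0.63 for Cd74, -0.60 for H2-Aa, -0.46 for H2-DMa, -0.22 for H2-Ab1 and -0.14 for H2-Eb1. Whether the populations differ in this effect could not be tested, since 4 arrays leave no residual degree of freedom once that term is fitted.

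**Figure D2:**
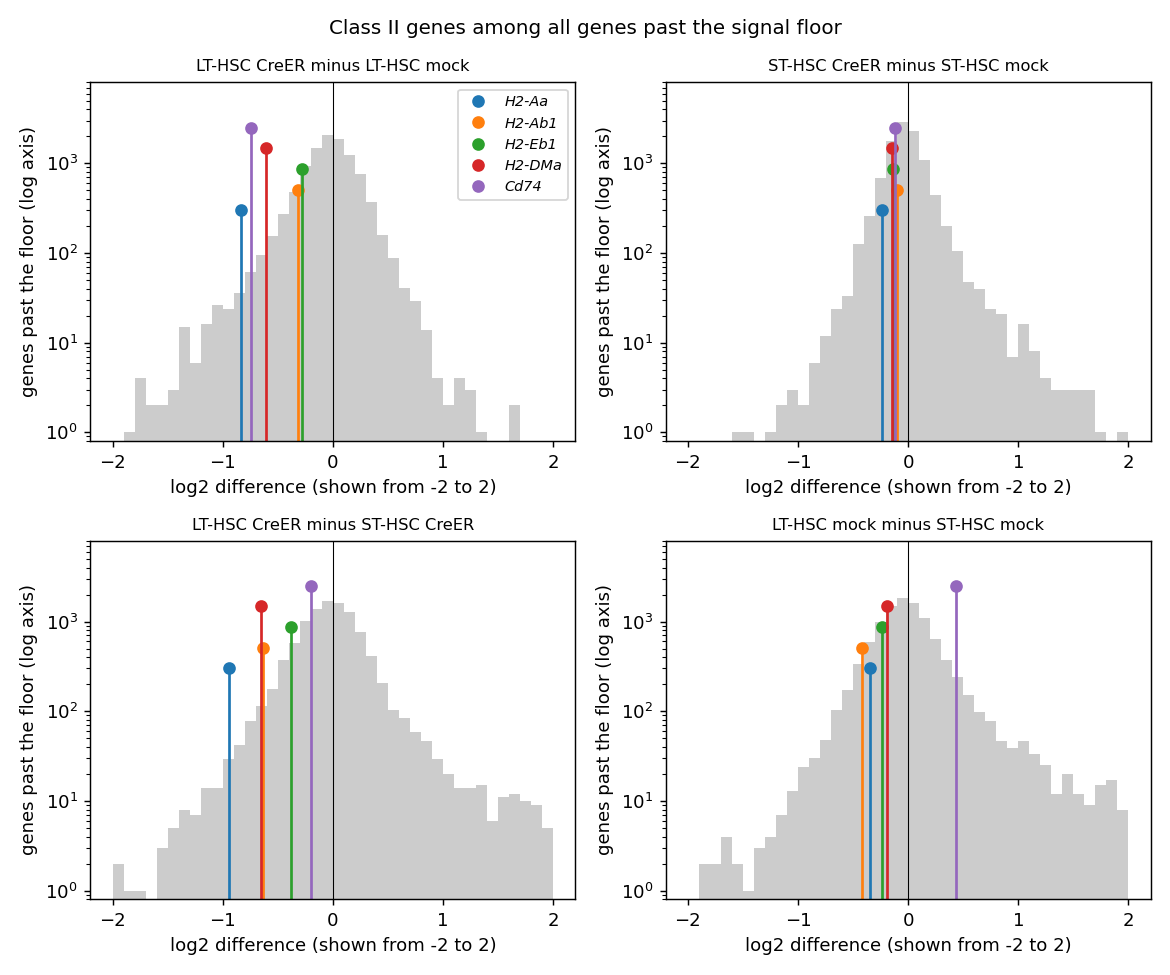
Log2 differences of the 5 class II genes above the signal floor (coloured stems, whose heights only separate them) over histograms of all genes past the floor, with a log count axis and differences from -2 to 2. In LT-HSC CreER minus LT-HSC mock all 5 stems lie left of 0, from -0.83 to -0.28, and in LT-HSC mock minus ST-HSC mock Cd74 alone lies right of 0, at 0.43.

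Between the populations, the chain genes and H2-DMa were lower in LT-HSC than in ST-HSC colonies, in both transductions. With CreER, H2-Aa was 1.93-fold lower (log2 difference -0.95), H2-DMa 1.57-fold lower (-0.65) and H2-Ab1 1.55-fold lower (-0.63), and H2-Eb1 differed by -0.38. Among genes past the floor, 0.672% had a difference as low as that of H2-Aa. At least 1.5-fold lower were 3 of the 6 genes, where 3.21% of genes past the floor were, and 2-fold lower were 0, where 0.545% were. None was 1.5-fold higher, where 3.61% were, or 2-fold higher, where 1.38% were. With each array centred on its median, H2-Aa was just past 2-fold in this comparison, at -1.01. With mock the differences were smaller, at -0.42 for H2-Ab1, -0.35 for H2-Aa, -0.24 for H2-Eb1 and -0.19 for H2-DMa. With mock none was 1.5-fold lower, where 2.61% of genes past the floor were, and none 1.5-fold higher, where 5.44% were. At 2-fold 0 were lower, where 0.398% were, and 0 higher, where 2.71% were. Cd74 went the other way with mock, at 0.43, and differed by -0.20 with CreER. The comparisons with mock and with CreER in a population share arrays with the comparisons above, so these values are not separate observations.

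An additive model with terms for transduction and population was fitted to all 4 arrays with limma over 10498 genes. It takes each effect to be the same at both levels of the other term, and tests each term against the spread left over. CreER effects that differ between the populations, as printed above for Cd74 and H2-Aa, are counted in that spread, which is not a spread between replicates. For CreER against mock, 0 of the 5 class II genes in the fit passed a Benjamini-Hochberg adjusted p of 0.05, as did 0% of all genes. Unadjusted, 3 of the 5 and 1058 of all genes had a limma p under 0.05. The fitted effect was -0.53 ± 0.16 (SE) for H2-Aa, with a limma adjusted p of 0.394, and -0.43 ± 0.16 (SE) for Cd74, with one of 0.477. H2-DMa, H2-Eb1 and H2-Ab1 had fitted effects of -0.37, -0.21 and -0.21, with limma adjusted p-values of 0.459, 0.538 and 0.562.

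For LT-HSC against ST-HSC, the additive fit called 6.42% of genes, and 0 of the 5 class II genes. H2-Ab1 was nearest, with a fitted effect of -0.52 ± 0.10 (SE) and a limma adjusted p of 0.0503, which ran from 0.0415 to 0.0818 over the other processing choices tried. H2-Aa followed with -0.65 ± 0.16 (SE) and 0.0794 in limma, and H2-Eb1, H2-DMa and Cd74 had limma adjusted p-values of 0.131, 0.138 and 0.702. Unadjusted, 4 of the 5 genes had a limma p under 0.05, where 2696 of all 10498 genes had one. The levels of both LT-HSC arrays were under those of both ST-HSC arrays for these 4 genes (H2-Aa, H2-Ab1, H2-Eb1 and H2-DMa).

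H2-Oa, the alpha chain of the DO molecule that holds DM in check, ran against H2-Aa, H2-Ab1 and H2-Eb1 between the populations. It was at 10.09 on LT-HSC CreER, 10.33 on LT-HSC mock, 9.37 on ST-HSC CreER and 9.30 on ST-HSC mock. Both LT-HSC arrays were above both ST-HSC arrays, and the fitted population effect was 0.88 ± 0.11 (SE), with a limma adjusted p of 0.0188. With mock it was 2.04-fold higher in LT-HSC colonies, past the 2-fold rule that 2.71% of genes past the floor met. Its CreER differences were -0.24 in LT-HSC colonies and 0.07 in ST-HSC colonies. H2-Ob, its beta partner, lay under the floor on every array, between 7.60 and 7.71, and H2-Eb2 did so between 6.79 and 6.98.

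**Figure D3:**
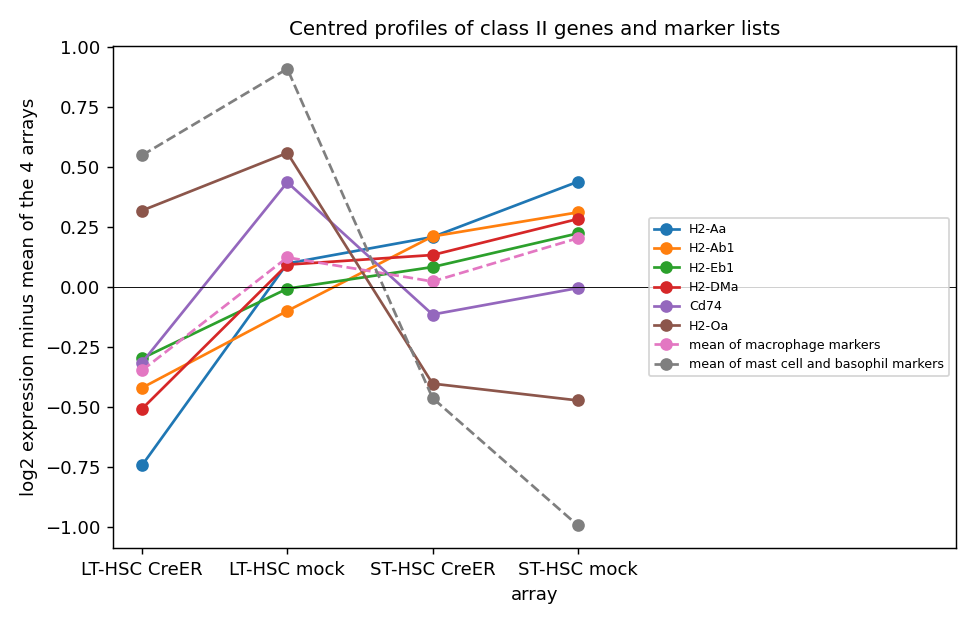
Log2 expression on each array minus the mean of the 4 arrays, for 5 class II genes, H2-Oa and the means of the macrophage and the mast cell and basophil marker lists (dashed). H2-Aa, H2-Ab1, H2-Eb1 and H2-DMa are lowest on LT-HSC CreER and highest on ST-HSC mock, Cd74 peaks on LT-HSC mock, and H2-Oa is higher on both LT-HSC arrays.

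The RFX and CREB genes, whose factors work with CIITA at class II promoters, differed little with CreER. The RFX subunit genes Rfx5, Rfxap and Rfxank differed by -0.04, 0.08 and -0.05 with CreER in LT-HSC colonies, and by -0.07, -0.02 and 0.02 in ST-HSC colonies. Creb1, which encodes the X2 box factor CREB, differed by 0.07 and 0.08, and by -0.45 between LT-HSC and ST-HSC colonies in each transduction. Of 14 enhanceosome and regulator genes 13 were measured, with CreER medians of -0.03 in LT-HSC colonies and 0.00 in ST-HSC colonies. Below 0 were 8 in LT-HSC colonies, where 55.5% of genes past the floor were, and 6 in ST-HSC colonies, where 57.4% were. The limma fit called 0 of them for either term, where it called 0% of all genes for CreER and 6.42% for the population term. Unadjusted, 2 of the 12 in that fit had a limma p under 0.05 for CreER, where 1058 of all 10498 genes had one. These were Irf4 and Prdm1, the last with CreER differences of -0.37 in LT-HSC colonies and -0.49 in ST-HSC colonies. For the population term 4 of the 12 had an unadjusted limma p under 0.05, where 2696 of all genes had one. Irf4, a transcription factor of dendritic cells and alternatively activated macrophages, was the one 2-fold lower member, at 8.16 on LT-HSC CreER against 9.19 on LT-HSC mock. In ST-HSC colonies it was at 7.84 with CreER, under the floor, and 8.56 with mock. Irf8, needed for monocyte and dendritic cell development, differed by 0.17 in LT-HSC colonies and -0.35 in ST-HSC colonies.

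Of the 10 genes of endosomal protein breakdown, limma called 0 for CreER against mock, where it called 0% of all genes. Their lowest limma adjusted p was 0.304. Unadjusted, 4 of the 10 had a limma p under 0.05, where 1058 of all 10498 genes had one. In LT-HSC colonies all 10 measured members were below 0, as were 55.5% of all genes past the floor, with a median of -0.38. At least 2-fold lower was 1 of them, where 0.761% of genes past the floor were. Lgmn, the endosomal protease legumain, was at 10.82 on LT-HSC CreER against 11.85 on LT-HSC mock. Ctss, the cathepsin that cuts the invariant chain, was at 11.75 on LT-HSC CreER against 12.55 on LT-HSC mock. Ctsl and Ctsb differed by -0.48 and -0.46. In ST-HSC colonies 9 of 10 were below 0, where 57.4% of genes past the floor were. The list median there was -0.16, and Lgmn was furthest, at -0.62. For the population term, limma called 1 of the 10, where it called 6.42% of all genes. Ctsh, the aminopeptidase cathepsin H, was lower in LT-HSC colonies, with a fitted effect of -0.87 (limma adjusted p 0.0144).

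Over all measured members, other parts of antigen presentation had CreER medians closer to 0 in LT-HSC colonies than the endosomal list, at -0.38. Over members past the floor, the interferon gamma response came near that value, at -0.31. The 14 measured of 16 class I presentation genes had CreER medians of -0.07 in LT-HSC colonies and -0.06 in ST-HSC colonies, and 0 were 1.5-fold higher or lower. Among all genes past the floor 1.03% were 1.5-fold higher and 3.05% lower in LT-HSC colonies, and 1.42% higher and 0.572% lower in ST-HSC colonies, so a count of 0 among 14 is near the background. Furthest among them was the peptide-trimming gene Erap1, at -0.43 in LT-HSC colonies. Nlrc5, the class I counterpart of CIITA, differed by 0.22 in LT-HSC colonies in its brightest probe set, but its 19 probe sets ranged from -0.70 to 0.22 with a median of -0.06. The 7 co-stimulation genes had medians of -0.16 and 0.13, or of -0.22 and 0.17 over those past the floor. Cd274, which encodes the inhibitory ligand PD-L1, was lower in LT-HSC than in ST-HSC colonies, with a fitted effect of -0.60 (limma adjusted p 0.0293). Pdcd1lg2, the gene of the related ligand PD-L2, went the other way, by 0.95 with mock and 0.26 with CreER. Cd80, a ligand of CD28, differed by -0.92 between LT-HSC CreER and ST-HSC CreER. The 8 trafficking and turnover genes had CreER medians of -0.03 and 0.00, and Marchf1, the ubiquitin ligase that sends class II for breakdown, differed by -0.76 between LT-HSC mock and ST-HSC mock. The 10 measured of 12 interferon gamma response genes had CreER medians of -0.19 in LT-HSC colonies and -0.07 in ST-HSC colonies. Of the 8 past the floor in LT-HSC colonies 7 were below 0 and 1 above, where 55.5% of all genes past the floor were below 0. In ST-HSC colonies 4 of the 8 past the floor were below 0, where 57.4% of all genes past the floor were. Socs1, an inhibitor of cytokine signalling, differed most among them: it was 2.09-fold higher in LT-HSC than in ST-HSC colonies with mock, past the 2-fold rule that 2.71% of genes past the floor met, and its CreER differences were -0.52 and 0.42.

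**Figure D4:**
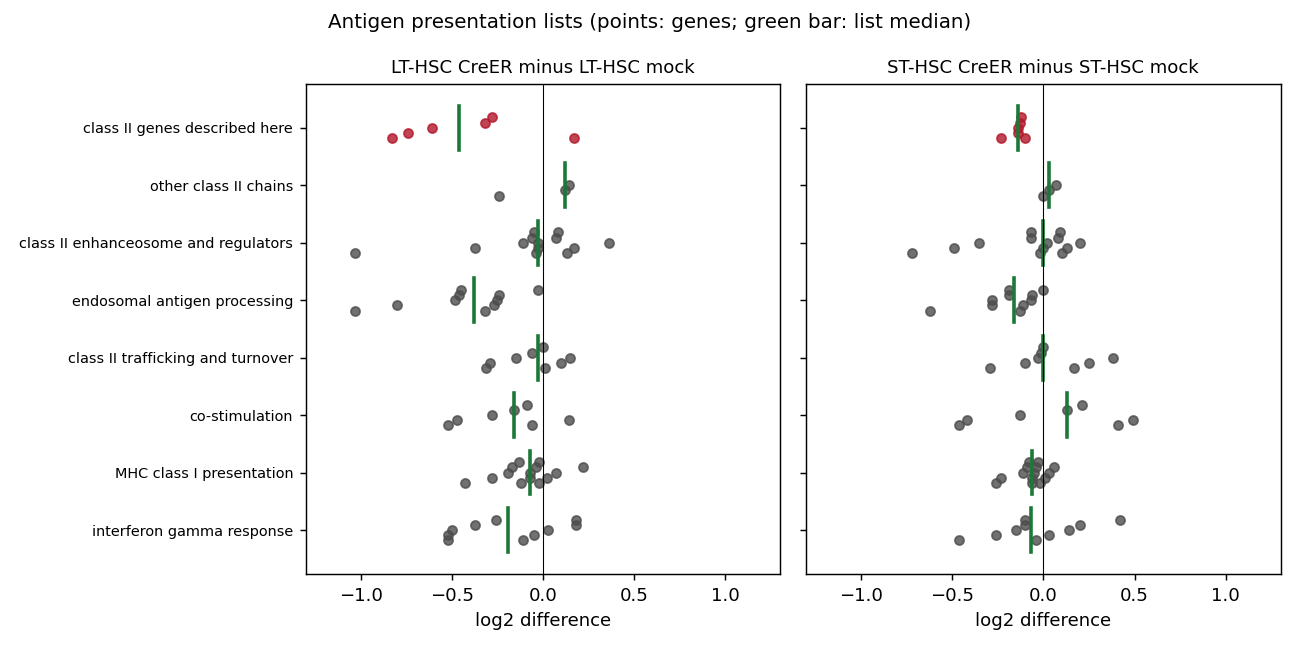
Log2 differences of CreER minus mock for 8 antigen presentation lists in LT-HSC colonies (left) and ST-HSC colonies (right), 1 point per measured gene, spread vertically only to separate them, with a green bar at the list median. The class II genes and the endosomal processing genes have medians of -0.46 and -0.38 on the left, and the class I list one of -0.07.

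Macrophage markers were, on average, lowest and highest on the same arrays as the chain genes, and so were other lists. The list means of endosomal processing, enhanceosome and regulator, and class I presentation genes were also lowest on LT-HSC CreER and highest on ST-HSC mock. Of 11 measured macrophage markers, 8 passed the floor on 1 or more arrays, where 10498 of all 19938 genes did. The macrophage list mean was 9.87 on LT-HSC CreER, 10.34 on LT-HSC mock, 10.24 on ST-HSC CreER and 10.42 on ST-HSC mock. Its ST-HSC mock and LT-HSC mock means lay close together, so which is highest is uncertain. With CreER in LT-HSC colonies the list median was -0.48, and Mrc1 (-1.32), Mertk (-1.21) and Trem2 (-1.12), receptors for sugars, dying cells and lipids, were at least 2-fold lower, 3 of 11 where 0.761% of genes past the floor were. Above 0 were 3 others: C1qa (0.50) and C1qc (0.24), complement genes under the floor on every array, and Cd14 (0.05), the lipopolysaccharide co-receptor. In ST-HSC colonies the median was -0.13. Members differed in their highest array: Mrc1 (12.32) and Trem2 (11.31) were highest on LT-HSC mock, as Cd74 was. Mertk (9.86) and Cd14 (11.89) were highest on ST-HSC mock. The part of macrophage content in the class II differences was not tested.

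Of 13 dendritic cell markers, 6 were under the floor on every array, where 9440 of all 19938 genes were. Flt3, the receptor of dendritic cell precursors, was among the 6, at 7.98 or less. With CreER in LT-HSC colonies 7 of the 13 were above 0, where 11754 of all 19938 genes were. The list median was 0.07. Of the 6 past the floor in that comparison 5 were below 0, where 55.5% of all genes past the floor were. The median of those past the floor was -0.31. Furthest among the 13 were Itgax (-1.63), Flt3 (0.88) and Clec10a (-0.84), a lectin gene. The list mean was 8.27 on LT-HSC CreER, 8.38 on LT-HSC mock, 8.24 on ST-HSC CreER and 8.29 on ST-HSC mock. Itgax, the integrin CD11c, shared with Cd74 a peak on LT-HSC mock, at 10.61, against 8.98 on LT-HSC CreER, 9.56 on ST-HSC CreER and 9.51 on ST-HSC mock. This peak was not particular to Itgax: Mrc1 and Trem2 of the macrophage list and the mast cell and basophil list mean had it too. B cell markers were mostly under the floor: 7 of 9 measured lay there on every array, where 9440 of all 19938 genes did. The B cell list mean lay between 7.08 and 7.12. The B cell markers above the floor were Cd79b and Cd22, chosen after their values were seen. The 5 measured T cell markers all lay under the floor, where 9440 of all 19938 genes did, with list means of 6.81 to 7.05. The mean of 10 mast cell and basophil markers was 10.81 on LT-HSC CreER, 11.17 on LT-HSC mock, 9.80 on ST-HSC CreER and 9.27 on ST-HSC mock, an order unlike that of the chain genes. The mean of 10 neutrophil markers was 12.94 on LT-HSC CreER, 12.81 on LT-HSC mock, 13.36 on ST-HSC CreER and 12.65 on ST-HSC mock. The part of either lineage in the class II levels was not tested.

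The genes with profiles nearest to the mean centred profile of H2-Aa, H2-Ab1, H2-Eb1 and Cd74 were Exoc6b, Mrpl42, Tmbim1, Abcg1, Tmem184c, Dram2, H2bc4 and Slc36a4. Likeness was the root mean square difference over the 4 arrays among 10493 other genes that pass the floor on 1 or more arrays, and it ran from 0.018 for Exoc6b to 0.034 for Slc36a4. These 8 genes had CreER differences of -0.56 to -0.46 in LT-HSC colonies and -0.21 to -0.08 in ST-HSC colonies. With 4 arrays such a ranking separates little, since 189 genes lay within 0.10 log2 units, limma's prior SD of 1 array. H2-DMa, which did not enter the mean, lay at 0.04, H2-Eb1 at 0.09, H2-Ab1 at 0.12, H2-Aa at 0.19 and Cd74 at 0.24, so the mean profile fits Cd74 least well among its own genes.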

How the data were processed

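The authors deposited 1 value per probe set and array, taken as log2 expression from its range (2.21 to 14.82) and used as deposited. The submitters' processing notes name Affymetrix Expression Console, but the sources used here give neither its version nor how it summarised and normalized. Whether this compresses differences near background was not tested.

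Of 35556 probe sets, the 21789 with 1 gene symbol were named (1621 had several), giving 19938 genes; for the 999 with several probe sets the brightest stood for the gene. The signal floor is each array's median over genes. Differences of 2 arrays were counted by size (2-fold or 1.5-fold, higher array past its floor), with no p-value. The additive fit used limma 3.58.1 in R 4.3.3 (lmFit, eBayes) over genes that pass the floor on 1 or more arrays, Benjamini-Hochberg at 0.05, with 1 residual and 4.34 prior degrees of freedom per gene. Nothing says the arrays hold separate animals. The p-values are set against the spread that the additive model leaves over in these arrays, which is not a spread between replicates. The number of arrays limits the precision.

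Named were the 6 class II genes, other class II chains, regulators, up to 4 members of each list with large differences in the comparison described, and the 8 nearest profiles. Ctsh (the one endosomal gene called), Pdcd1lg2, Socs1 and the macrophage markers above 0 were added after their values were seen. The members and lists were chosen with earlier results of these data known. Of 138 list genes, 128 had a probe set of their own. Alternatives were quantile, cyclic loess and median scaling, the mean of all probe sets, other floors and thresholds, and a trend in the eBayes prior.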

Additional observations from a re-analysis of the deposited data

Results flagged for a closer look

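The results below are given because a difference had opposite signs in the populations or in the transductions. Only genes named above and list medians were looked at, so list genes not named above are left out. In each case this rests on 1 array per group, and the difference between the effects was not tested.

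Cd74 had a population difference (LT-HSC minus ST-HSC) of -0.20 with CreER and 0.43 with mock, a gap of -0.63. Ciita, under the floor throughout, had a CreER difference (CreER minus mock) of 0.17 in LT-HSC colonies and -0.13 in ST-HSC colonies, and population differences of 0.16 with CreER and -0.14 with mock, a gap of 0.30 either way. The CreER difference of H2-Oa was -0.24 in LT-HSC colonies and 0.07 in ST-HSC colonies, a gap of -0.31. H2-Ob and H2-Ea, both under the floor, had gaps of 0.11 (population) and 0.19 (both contrasts). The median of the other class II chains had a population gap of 0.11. Only H2-Oa of these chains passed the floor, and its population differences had 1 sign, at 1.03 with mock and 0.72 with CreER.

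For Itgax the CreER difference was -1.63 in LT-HSC colonies and 0.05 in ST-HSC colonies, a gap of -1.69. Mrc1 and Trem2 had population differences of -0.99 and -0.63 with CreER, against 0.30 and 0.18 with mock, gaps of -1.29 and -0.81. Socs1 (-0.94), Pdcd1lg2 (-0.68), Cd80 (-0.65), Irf8 (0.52), Marchf1 (0.45), Rfxap (0.11) and Rfxank (-0.07) had CreER differences of opposite sign, with the gap in brackets. Cd14 (0.69), Cd22 (-0.59) and Nlrc5 (0.28) had them in both contrasts, and Erap1 (-0.35) and C1qa (0.27), the last under the floor, between the transductions. For Nlrc5 this holds for its brightest probe set: the medians over its 19 probe sets had 1 sign, at -0.06 in LT-HSC and -0.13 in ST-HSC colonies for CreER, and at -0.14 with CreER and -0.17 with mock for the populations.

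List medians of CreER differences had gaps between the populations of -0.83 for mast cell and basophil markers, -0.29 for co-stimulation and 0.10 for dendritic cell markers. List medians of population differences had gaps between the transductions of -0.23 for class II trafficking and turnover, 0.18 for T cell markers, 0.15 for the interferon gamma response and 0.04 for B cell markers.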

How the results depend on the processing

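All 24 differences of the 6 class II genes in the 4 comparisons kept their sign under quantile, cyclic loess and median scaling and with the mean of all probe sets, with a largest move of 0.10. That move was of Ciita in LT-HSC CreER against LT-HSC mock, where 0.17 became 0.09 after quantile and 0.06 after cyclic loess normalization. Its 0.16 in LT-HSC CreER against ST-HSC CreER became 0.09 after cyclic loess and 0.10 after median centring, and no other class II difference moved by over 1.5 times. The 4 medians kept their sign as well. The class II count that was 0 at 2-fold lower became 3 at 1.5-fold for LT-HSC CreER against LT-HSC mock and 3 for LT-HSC CreER against ST-HSC CreER. In the last comparison it was 1 (H2-Aa, at -1.01) with each array centred on its median. In limma's additive fit H2-Ab1 passed 0.05 for the population term with median centring (adjusted p 0.0498), with no floor (0.0433) and with an eBayes trend (0.0415), and its range over all alternatives was 0.0415 to 0.0818. At a threshold of 0.1 H2-Aa (0.0794) passed too. No class II gene passed for CreER, with adjusted p-values of 0.356 to 0.684. The cause of these moves was not tested.

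Counts over all genes (higher and lower) moved with threshold and floor by construction. At 1.5-fold they were 106 and 313 for LT-HSC CreER against mock, 144 and 58 for ST-HSC CreER against mock, 560 and 269 for LT-HSC against ST-HSC mock, and 371 and 330 for LT-HSC against ST-HSC CreER. At 3-fold they were 2 and 10, 7 and 0, 132 and 11, and 62 and 5, in the same order. With the floor at the 75th percentile they were 5 and 48, then 3 lower, 151 and 19, and 69 and 28. The 674 genes called for the population term were 440 after quantile and 368 after cyclic loess normalization, 195 with the higher floor and 1416 at an adjusted p of 0.1. Arrays could not be paired by replicate number, since each group holds 1 array and the labels carry none, and the additive fit already compares CreER with mock within each population. Ciita lay under the floor, so its differences are of uncertain size.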
